A study of Mus musculus with 16 samples.

Results

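The odorant receptor genes of mouse chromosome 10 were examined across 4 groups of sorted cells from the olfactory mucosa. A gene was taken as a member when its symbol was Olfr followed by a number and its probe set on the array was assigned to chromosome 10. This rule found 65 genes among the 1091 odorant receptors and the 19505 named genes of the array, and each of the 65 had a single probe set. In the reference gene table all 65 lie on chromosome 10, in 2 blocks with 1022 other genes between them. The proximal block holds 9 receptors (Olfr1357 to Olfr57 in map order) and the distal block holds 56 (Olfr9 and Olfr763 to Olfr827, with Olfr247 between Olfr819 and Olfr820).

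Odorant receptors are G protein-coupled receptors, and a mature olfactory sensory neuron transcribes a single receptor gene, from a single allele. An odorant that binds the receptor activates the G protein subunit Gnal, the adenylyl cyclase Adcy3 and a cyclic nucleotide-gated channel, and repeated activity of the neuron induces S100a5, which encodes a calcium-binding protein. In S100a5-tauGFP mice this activity drives a green fluorescent protein, so a receptor whose neurons were recently active is expected among GFP+ cells and a receptor whose neurons were quiet among GFP- cells. Receptors are named in MOR families by sequence similarity, and all families found here belong to class II, the receptors typical of land vertebrates. Fatty acids such as octanoic acid are known as ligands of many class I receptors and of some class II receptors.

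The 4 groups were GFP+ cells and GFP- cells of mice given octanoic acid, and GFP+ cells and GFP- cells of mice given filtered clean air as the vehicle, with 4 arrays each. All 24 mice, of both sexes and 7 to 12 weeks old, carried the S100a5-tauGFP reporter and were housed alone for 40 h in chambers ventilated with clean air at 3.1 L per min, with pulses of odor or vehicle for 10 s every 20 min from 26 h on. Mucosa of 3 mice was pooled before sorting, so each treatment has 4 pools and each pool gives a GFP+ and a GFP- array. Because the pool joins 3 animals, the spread between pools is not the spread between mice.

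Values are log2 signals. Background here means the median signal of the 5222 negative controls, which was 6.20 log2 across the 16 arrays and 5.80 to 6.77 log2 array by array. Control medians were highest on the octanoic acid GFP+ array of pool 3 (6.71) and the clean air GFP- array of pool 4 (6.77). S100a5, whose reporter set the gate, was higher in GFP+ cells by 1.53 ± 0.52 log2 with octanoic acid and by 1.32 ± 0.22 log2 with clean air (SD, n = 4 pools). Mature neuron markers other than Cngb1 were bright in every group. Over 12 genes the mean was 16.37 to 16.48 log2 on the octanoic acid GFP+ arrays. On the GFP- arrays of these pools it was 16.12 to 16.26 log2. Cngb1 was near the background, at 7.25 and 6.83 log2 in GFP+ and GFP- cells with octanoic acid. With clean air it was at 6.73 and 6.86 log2. Of the 12 genes, Ano2 and Ckb were higher in GFP+ cells with both treatments and none was lower. Other markers were lower in GFP+ cells with both treatments, namely 5 of 7 immature neuron genes, 4 of 4 measured progenitor genes and 6 of 6 measured leukocyte genes. The leukocyte mean was 6.51 to 7.73 log2 on the octanoic acid GFP+ arrays, where 2 of the 6 genes lay under the background, against 12.59 to 14.59 log2 on the GFP- arrays. Immature neuron genes averaged 10.47 to 10.89 log2 on the octanoic acid GFP+ arrays, where 1 of the 7 lay under the background, against 12.32 to 13.10 log2 on the GFP- arrays. Progenitor genes averaged 5.05 to 5.33 log2 on the octanoic acid GFP+ arrays, where all 4 lay under the background, against 7.80 to 9.21 log2 on the GFP- arrays. Of 6 sustentacular genes 2 were lower with octanoic acid and 3 with clean air, and of 4 microvillous and tuft cell genes 3 were lower with octanoic acid and 4 with clean air. With clean air the leukocyte mean was 5.88 to 7.45 log2 in GFP+ cells and 12.25 to 13.94 log2 in GFP- cells. The part of these cells in the receptor differences below was not tested, and in such bulk samples fewer cells of a type and less RNA per cell cannot be told apart.

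The mapped start regions show how closely some of these receptors are related, and the pairs on which later results turn are printed here. RefSeq holds a window of 250 bases before to 50 bases after the annotated start (GRCm38.p6) for 52 of the 65 genes. In 48 of these windows the first 3 bases after the annotated start are ATG, so that the window lies around the start codon. Receptors of the same MOR family shared a median of 55.9% of aligned bases, against 52.8% for receptors of different families, and 2 pairs exceeded 90%. Gap positions of an alignment counted as not shared. The closest pair was Olfr1354 (chr10:78916592-78916891, plus strand) and its map neighbor Olfr8 (chr10:78954957-78955256, plus strand), which shared 99.7% and differed by a single substitution, T140C, counted from the first base of the window with the base of Olfr1354 first. That base is in capitals.
Olfr1354: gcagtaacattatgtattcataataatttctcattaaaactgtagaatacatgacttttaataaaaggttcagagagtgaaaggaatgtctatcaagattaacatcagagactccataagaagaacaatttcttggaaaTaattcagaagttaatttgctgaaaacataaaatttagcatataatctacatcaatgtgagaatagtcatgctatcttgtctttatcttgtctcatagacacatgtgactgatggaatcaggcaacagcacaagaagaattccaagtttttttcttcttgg
Olfr8: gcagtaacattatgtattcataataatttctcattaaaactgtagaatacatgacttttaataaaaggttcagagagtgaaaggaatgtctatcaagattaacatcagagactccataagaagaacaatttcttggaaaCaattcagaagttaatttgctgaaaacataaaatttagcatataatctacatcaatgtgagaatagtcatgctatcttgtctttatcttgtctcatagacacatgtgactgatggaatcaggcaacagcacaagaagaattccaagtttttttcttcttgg

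The adjacent genes Olfr819 (chr10:129966649-129966948, minus strand) and Olfr247 (chr10:129975500-129975799, minus strand), both of family MOR265, shared 87.8% of aligned bases, and almost all of the rest came from an offset of the aligned windows. Bases without a match in the alignment are in capitals. This pair is shown because Olfr247 was called lower in GFP+ cells and Olfr819 was not. The alignment has 280 matches and 1 mismatch. Probes of such similar genes may take up RNA of both, which was not tested.
Olfr819: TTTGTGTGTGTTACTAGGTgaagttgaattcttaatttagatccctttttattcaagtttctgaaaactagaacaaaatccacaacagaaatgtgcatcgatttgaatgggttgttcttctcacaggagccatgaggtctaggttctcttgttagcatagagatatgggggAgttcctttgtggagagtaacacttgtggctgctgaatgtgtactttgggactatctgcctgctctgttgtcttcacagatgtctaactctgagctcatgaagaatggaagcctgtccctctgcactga
Olfr247: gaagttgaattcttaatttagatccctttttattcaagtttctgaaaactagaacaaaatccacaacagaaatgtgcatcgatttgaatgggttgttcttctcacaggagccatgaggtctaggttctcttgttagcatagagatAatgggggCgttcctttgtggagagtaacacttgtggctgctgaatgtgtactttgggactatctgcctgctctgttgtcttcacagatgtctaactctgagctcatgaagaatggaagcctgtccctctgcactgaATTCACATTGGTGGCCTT

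Olfr825 (chr10:130163275-130163574, minus strand) and Olfr826 (chr10:130180829-130181128, minus strand), neighbors of family MOR210 and among the receptors with the largest falls, shared 70.2% of aligned bases. Their longest common run, in capitals, has 37 bases and spans positions 240 to 276 of both windows, across the start codon.
Olfr825: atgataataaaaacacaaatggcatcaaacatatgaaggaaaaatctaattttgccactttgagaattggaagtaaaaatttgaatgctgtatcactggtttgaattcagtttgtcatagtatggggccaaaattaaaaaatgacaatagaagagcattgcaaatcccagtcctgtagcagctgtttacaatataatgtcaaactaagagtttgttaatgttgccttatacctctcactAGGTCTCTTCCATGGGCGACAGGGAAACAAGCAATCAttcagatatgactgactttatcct
Olfr826: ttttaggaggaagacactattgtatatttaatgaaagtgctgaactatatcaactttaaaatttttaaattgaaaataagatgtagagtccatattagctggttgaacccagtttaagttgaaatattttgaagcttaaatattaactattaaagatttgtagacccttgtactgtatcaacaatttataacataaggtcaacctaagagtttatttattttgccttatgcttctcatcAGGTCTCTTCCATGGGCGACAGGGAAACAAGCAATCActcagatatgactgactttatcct

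The first comparison asks which of these receptors the reporter marks within a pool, as GFP+ minus GFP- of the same 3 mice. More of the chromosome 10 receptors were lower in GFP+ cells than higher. With octanoic acid 13 of 65 (20.0%) were higher and 24 (36.9%) were lower at an adjusted p under 0.05 from limma, while over all genes 6.26% were higher and 10.9% were lower. With clean air 11 (16.9%) were higher and 24 (36.9%) lower, while over all genes 5.83% were higher and 9.58% were lower. Among the 1026 odorant receptors of other chromosomes 37.2% were higher and 24.3% lower with octanoic acid, and 38.9% were higher and 22.5% lower with clean air. The median difference over the 65 genes was -0.43 log2 with octanoic acid and -0.35 log2 with clean air, beside 0.33 and 0.48 log2 over the other receptors and 0.11 log2 over all genes with either treatment. The median over the 65 was -0.24 log2 without octanoic acid pool 3 and, with clean air, -0.16 log2 without clean air pool 3. With arrays centred on their medians it was -0.12 log2 with octanoic acid and -0.08 log2 with clean air. These shares and medians are descriptions, and the contrast with other receptors was not tested.

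More of the falls than of the rises were large. Where the mean of GFP+ cells did not exceed the background by 1 SD, a fold is a lower bound, set with arrays under the background raised to it. With octanoic acid 13 receptors fell over 4-fold, 9 of them by such a bound, and 2 rose over 4-fold. With clean air 16 fell over 4-fold, 9 of them by a bound, and 3 rose over 4-fold. Counted without bounds, called falls and rises over 4-fold numbered 14 and 2 among the 65 with octanoic acid. They numbered 803 and 146 among all 19505 genes, and 159 and 141 among the 1026 other receptors. With clean air the numbers were 16 and 3 among the 65, 718 and 181 among all genes, and 146 and 175 among other receptors. More falls than rises were thus large over all genes too. All 4 GFP+ arrays lay below all 4 GFP- arrays for 21 receptors with octanoic acid and 23 with clean air, while 10.7% of all genes did so with either treatment. They lay above for 12 receptors with each treatment, while 7.25% of all genes did so with octanoic acid and 9.82% with clean air. Centring each array on its own median, which moves the median of all genes to 0.42 log2 with octanoic acid and 0.38 log2 with clean air, gave 17 higher (26.2%) and 23 lower (35.4%) with octanoic acid, while over all genes 39.9% were higher and 8.79% lower. Among clean air pools it gave 19 higher (29.2%) and 22 lower (33.8%), while over all genes 31.2% were higher and 8.05% lower. The share of receptors called higher was thus above that of all genes as deposited and below it after centring. Without octanoic acid pool 3 and clean air pool 4 there were 14 higher and 21 lower with octanoic acid and 12 higher and 22 lower with clean air.

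**Figure D1:**
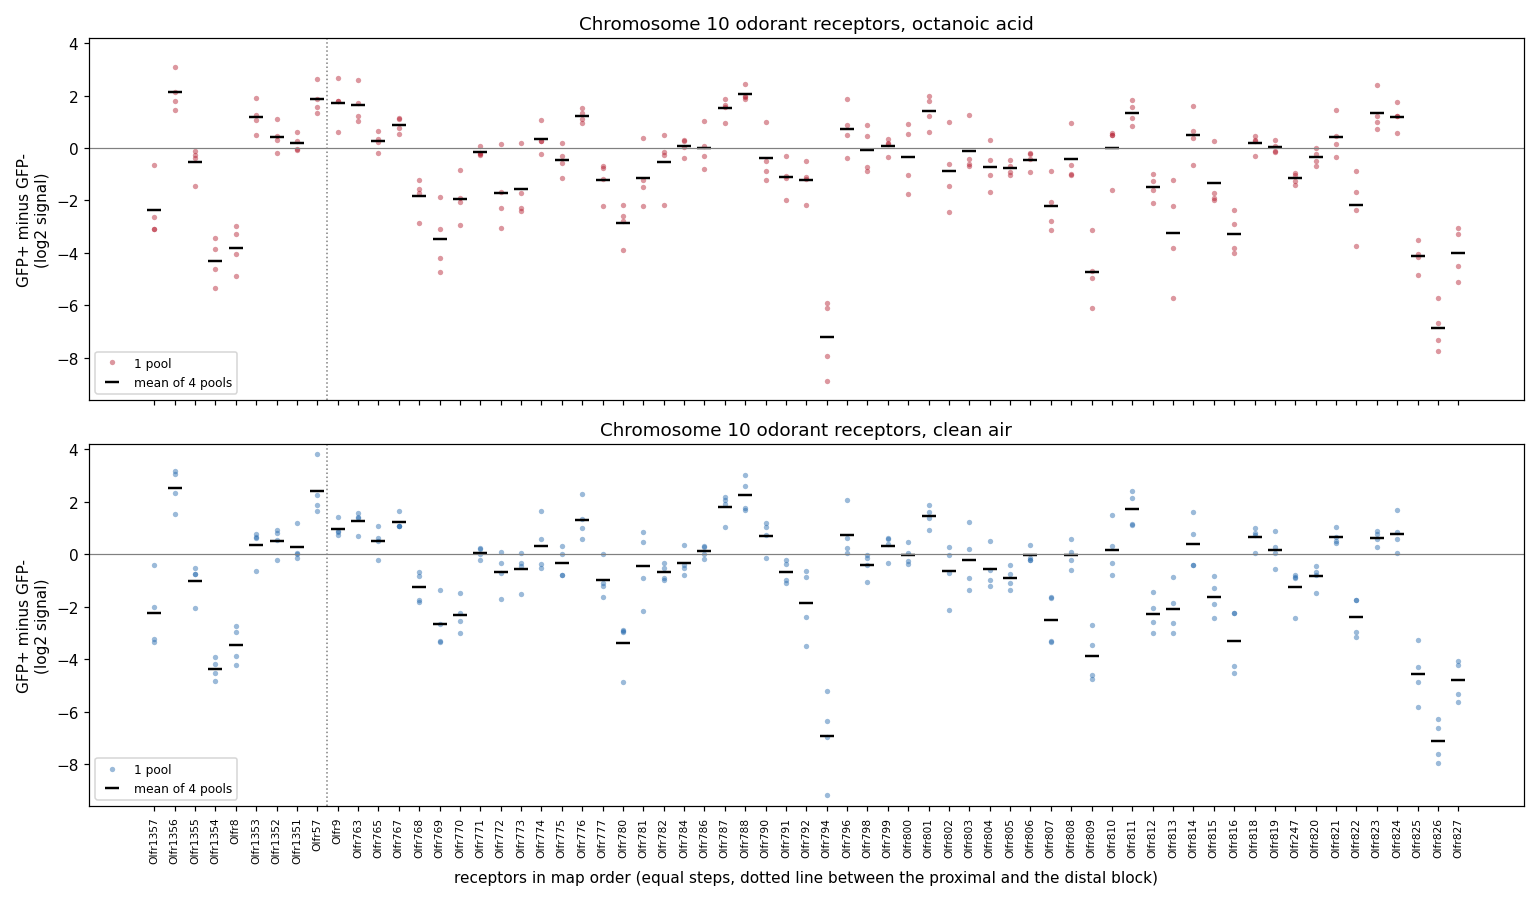
GFP+ minus GFP- difference in log2 signal of each of the 65 receptors in map order (equal steps), with octanoic acid above and clean air below. Each point is a pool, each bar the mean of 4 pools, and the dotted line parts the proximal from the distal block. Olfr794 and Olfr826 lie lowest in both panels, and receptors with opposite differences sit side by side.

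In the proximal block the 9 receptors went both ways. With octanoic acid 3 were higher and 3 lower, and with clean air 2 were higher and 4 lower. Olfr1356, the only member of family MOR142 here, had 11.56, 11.55, 12.73 and 11.71 log2 on the octanoic acid GFP+ arrays of pools 1 to 4 and 9.75, 10.11, 9.65 and 9.56 log2 on the GFP- arrays. With clean air it had 11.81, 11.51, 12.70 and 11.37 log2 in GFP+ cells and 9.48, 9.97, 9.52 and 8.33 log2 in GFP- cells. Every GFP+ array of a treatment was above every GFP- array, with pool 3 highest in both treatments. The mean difference was 2.12 ± 0.70 log2 with octanoic acid (4.35-fold higher, adjusted p = 0.000293) and 2.52 ± 0.75 log2 with clean air (5.76-fold higher, adjusted p = 8.03e-05; SD, n = 4 pools).

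Olfr57, of family MOR139 at the far end of this block, was also higher in GFP+ cells. Its differences were 1.86, 2.65, 1.57 and 1.33 log2 in octanoic acid pools 1 to 4 and 2.26, 1.65, 1.88 and 3.81 log2 in clean air pools 1 to 4, all above 0. These gave 3.61-fold higher with octanoic acid (adjusted p = 0.00145) and 5.27-fold higher with clean air (adjusted p = 0.000216). Olfr1353, of the same family, was called higher with octanoic acid alone, at 1.18 ± 0.58 log2 (adjusted p = 0.00859), beside 0.35 ± 0.67 log2 with clean air (adjusted p = 0.438).

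The near-identical neighbors Olfr1354 and Olfr8 both fell. Olfr1354 had 6.76, 7.62, 7.37 and 7.74 log2 in GFP+ cells and 12.09, 11.48, 12.00 and 11.16 log2 in GFP- cells of the octanoic acid pools. In the clean air pools it had 7.00, 7.05, 8.23 and 7.39 log2 in GFP+ cells and 11.82, 11.58, 12.41 and 11.30 log2 in GFP- cells. The sorted samples were more than 2 log2 apart on every pair of arrays. In GFP- cells Olfr1354 was brighter, and in GFP+ cells it was 19.8-fold lower with octanoic acid (limma adjusted p = 5.52e-07). With clean air it was 20.6-fold lower (limma adjusted p = 5.39e-07). Its GFP+ means of 7.37 and 7.42 log2 lay above the background but within the range of the controls, whose 95th percentiles were 10.60 and 10.43 log2 in these groups. Olfr8 averaged 5.82 log2 in GFP+ cells, under the background, and 9.61 log2 in GFP- cells with octanoic acid. Its fall was at least 9.19-fold with octanoic acid and at least 7.88-fold with clean air, given as a bound since GFP+ cells lay at the background. Probes for such similar copies may take up RNA of both, so the 2 falls may not be independent, although the counts include both genes.

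The other members of the block were Olfr1357, Olfr1355, Olfr1352 and Olfr1351. Olfr1357 (MOR128), at its outer end, was lower by a difference of -2.36 ± 1.17 log2 with octanoic acid (adjusted p = 0.00489) and -2.25 ± 1.37 log2 with clean air (adjusted p = 0.0069), right beside Olfr1356, which was higher. Olfr1355 was at -0.55 ± 0.61 log2 with octanoic acid and did not pass. With clean air it was at -1.02 ± 0.70 log2 (adjusted p = 0.0248), a call that ended without clean air pool 1, 2 or 4 and on centring or quantile scaling, with -1.11 log2 without pool 1, -1.11 log2 without pool 2 and -0.67 log2 without pool 4. Its clean air GFP+ cells lay less than 1 SD above the background, and it was at least 1.88-fold lower there. Olfr1351 and Olfr1352 had differences of 0.20 to 0.52 log2 with either treatment and did not pass.

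In the distal block 10 of 56 receptors were higher and 21 lower with octanoic acid, and 9 were higher and 20 lower with clean air. Olfr794, of family MOR114, and Olfr826, described further on, had the largest mean differences in size, and since both lay at the background in GFP+ cells they are not ranked. Olfr794 had 6.74, 7.74, 4.99 and 5.59 log2 in GFP+ cells and 12.83, 13.63, 13.86 and 13.52 log2 in GFP- cells of octanoic acid pools 1 to 4. With clean air it had 6.30, 6.90, 4.46 and 6.80 log2 in GFP+ cells and 13.26, 13.25, 13.64 and 12.03 log2 in GFP- cells. Its signal was at most 7.74 log2 in GFP+ cells and above 12 log2 in GFP- cells of every pool. The difference was -7.20 ± 1.45 log2 with octanoic acid (at least 96.2-fold lower, adjusted p = 3.74e-06) and -6.93 ± 1.66 log2 with clean air (at least 87.6-fold lower, adjusted p = 5.61e-06).

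Olfr794 belongs to the largest MOR family on the chromosome. Of its 13 members 9 were lower with octanoic acid and 6 with clean air, and none was higher. Some of these calls were lost under alternatives, as given below. The medians were -1.55 log2 with octanoic acid and -0.67 log2 with clean air. Centring on array medians left 9 and 5 lower, with 1 higher with clean air. Olfr769 had differences of -3.09, -1.85, -4.73 and -4.17 log2 in the octanoic acid pools and -2.66, -1.36, -3.30 and -3.33 log2 in the clean air pools, all below 0. Its mean was -3.46 ± 1.27 log2 with octanoic acid (at least 9.21-fold lower, with GFP+ cells less than 1 SD above the background, adjusted p = 0.000107) and -2.66 ± 0.92 log2 with clean air (adjusted p = 0.000907). Olfr780 fell at least 3.63-fold with octanoic acid and at least 4.98-fold with clean air, with GFP+ cells at the background. Olfr770 had -1.93 ± 0.86 log2 with octanoic acid (adjusted p = 0.000806) and -2.32 ± 0.65 log2 with clean air (adjusted p = 0.000206).

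Other MOR114 calls were less firm. Olfr768 was called lower with both treatments, but its signal of 3.69 log2 in GFP+ cells and 5.53 log2 in GFP- cells with octanoic acid was under the background, and no fold is given. Raising values to the background ended both of its calls, and leaving out clean air pool 4 ended that with clean air. Olfr772 and Olfr773 are neighbors that shared 76.5% of their windows, with 257 matches, 7 mismatches and 72 gap positions. Their probes may take up RNA of both, so the 2 may not be independent, although the counts include both genes. They were called lower with octanoic acid, at -1.72 ± 1.36 and -1.55 ± 1.19 log2. Both calls ended without octanoic acid pool 3 and without pool 4, where Olfr772 was at -1.27 and -1.53 log2 and Olfr773 at -1.31 and -1.27 log2. With clean air they were at -0.67 ± 0.77 and -0.57 ± 0.68 log2 and did not pass, and the odor effect, described further on, did not pass for either gene.

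**Figure D2:**
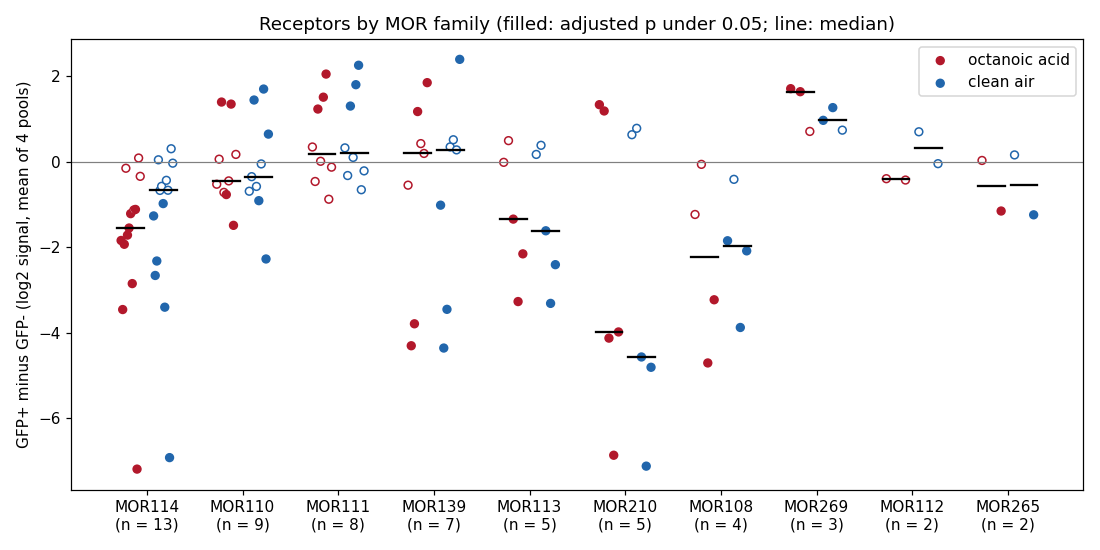
Mean GFP+ minus GFP- difference (log2 signal, mean of 4 pools) of each receptor, by MOR family with at least 2 members. Octanoic acid is left of clean air in each family, filled points passed an adjusted p of 0.05 in limma, and lines are medians. With the values as deposited, MOR114 reaches down to Olfr794 and has no filled point above 0, while MOR111 has none below 0. With arrays centred on their medians 1 MOR114 member passed above 0 with clean air.

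Family MOR111, whose 8 genes lie in the distal block, had 3 members higher and none lower with each treatment, also under the other scalings. The other 5 did not pass, and the family median was 0.18 log2 with octanoic acid and 0.21 log2 with clean air. Olfr788 had 14.79, 14.92, 15.00 and 14.70 log2 in GFP+ cells and 12.93, 12.47, 13.02 and 12.78 log2 in GFP- cells with octanoic acid. With clean air it had 14.54, 14.89, 14.99 and 14.98 log2 in GFP+ cells and 12.86, 13.12, 12.41 and 11.98 log2 in GFP- cells. No GFP+ array overlapped a GFP- array, and the GFP+ means were equal in both treatments to 2 decimals, at 14.85 log2. The gene was 4.15-fold higher with octanoic acid (2.05 ± 0.27 log2, adjusted p = 3.62e-05) and 4.79-fold higher with clean air (2.26 ± 0.64 log2, adjusted p = 1.9e-05).

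Its neighbor Olfr787 was higher by 1.51 ± 0.39 log2 with octanoic acid (adjusted p = 0.000311) and 1.81 ± 0.52 log2 with clean air (adjusted p = 8.35e-05). The third member, Olfr776, had differences of 1.53, 1.11, 0.95 and 1.35 log2 in the octanoic acid pools and 1.33, 0.58, 1.01 and 2.31 log2 in the clean air pools, all above 0. The MOR111 gene next to it, Olfr775, shares 83.1% of its window and had -0.46 ± 0.55 log2 with octanoic acid and -0.32 ± 0.56 log2 with clean air, neither past the threshold. On its other side the MOR114 gene Olfr777 was called lower, at -1.21 ± 0.71 log2 with octanoic acid (adjusted p = 0.0127) and -0.98 ± 0.71 log2 with clean air (adjusted p = 0.0406). The call with octanoic acid ended without octanoic acid pool 3, at -0.88 log2. The call with clean air ended without octanoic acid pool 4, without clean air pool 1, 3 or 4, at -0.94, -0.76 and -0.90 log2, and on centring each array on its median.

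At the distal end 5 receptors of family MOR210 lie next to each other, and they split by position. Olfr825, Olfr826 and Olfr827 fell deeply with both treatments. Olfr826 had 6.57, 5.51, 4.99 and 5.67 log2 in GFP+ cells and 12.30, 12.84, 12.73 and 12.35 log2 in GFP- cells with octanoic acid. With clean air it had 5.40, 5.70, 4.88 and 6.29 log2 in GFP+ cells and 13.38, 12.33, 12.49 and 12.58 log2 in GFP- cells. No GFP+ array exceeded 6.57 log2 and all GFP- arrays were above 12 log2, and the gene was at least 68.9-fold lower with octanoic acid (adjusted p = 7.68e-08) and at least 81.6-fold lower with clean air (adjusted p = 6.99e-08). The fall of Olfr825 was at least 15.7-fold with octanoic acid and at least 18.5-fold with clean air, and that of Olfr827 was at least 11.5-fold with octanoic acid and at least 16.1-fold with clean air.

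The other 2 genes of this run, Olfr823 and Olfr824, were not low in GFP+ cells. Olfr823 had differences of 2.39, 1.22, 0.74 and 1.00 log2 in the octanoic acid pools (adjusted p = 0.00185) and 0.77, 0.28, 0.60 and 0.88 log2 in the clean air pools (adjusted p = 0.105). Olfr824 had 1.21, 1.74, 0.59 and 1.22 log2 in the octanoic acid pools (adjusted p = 0.00601) and 0.57, 0.04, 0.85 and 1.68 log2 in the clean air pools (adjusted p = 0.0579). All 8 pools were above 0 for both genes, and with the values as deposited both passed with octanoic acid and not with clean air. Centring on array medians, or quantile normalization, brought both past the threshold with clean air too.

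**Figure D3:**
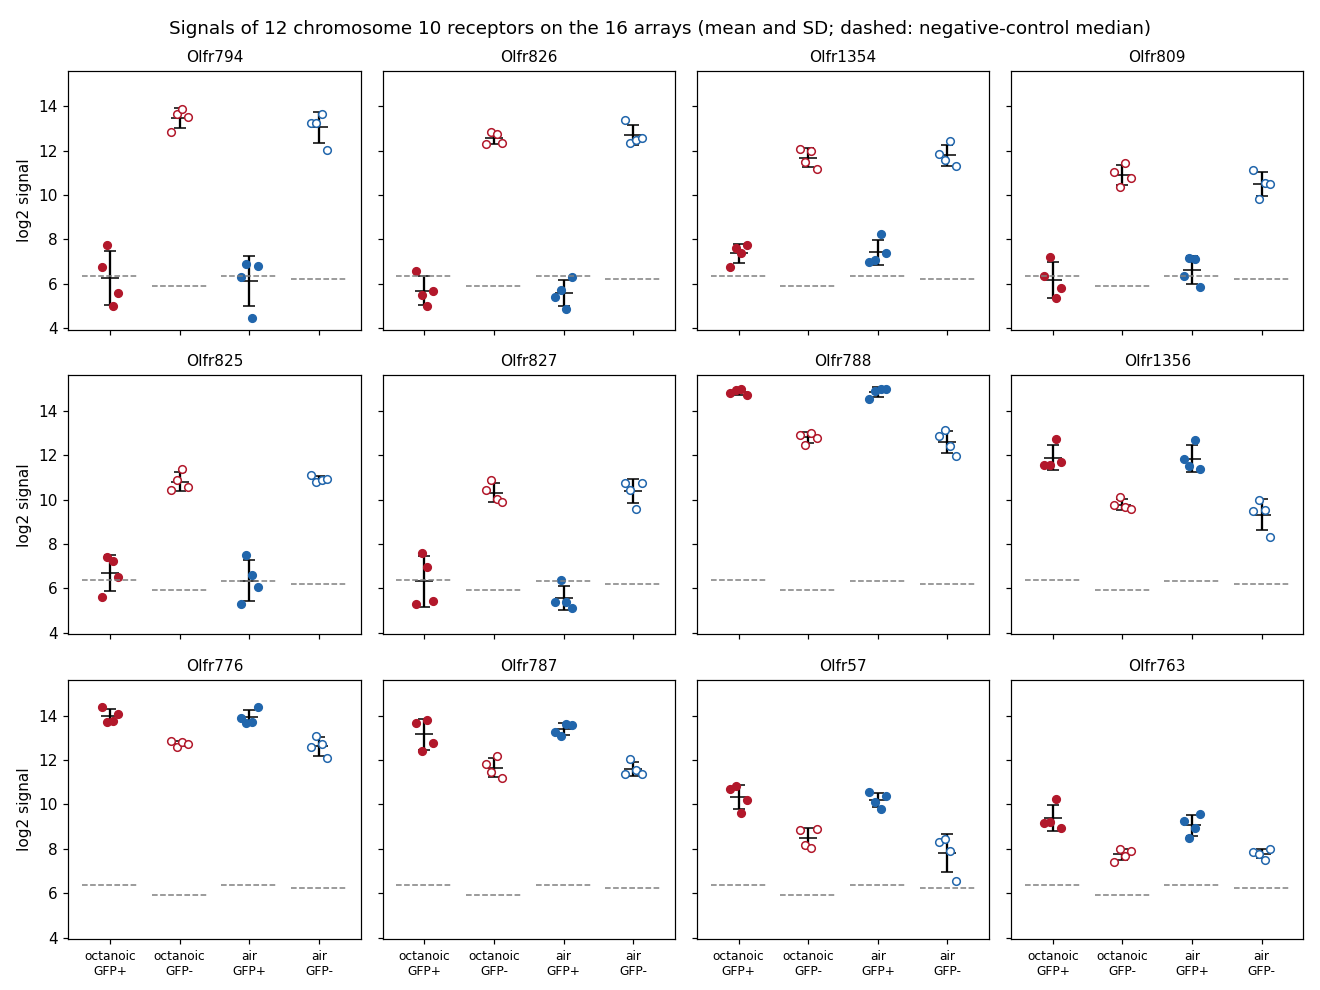
Log2 signal of 12 receptors on the 16 arrays, a panel per gene, in the order octanoic acid GFP+, octanoic acid GFP-, clean air GFP+ and clean air GFP-. Filled points are GFP+ arrays, open points GFP- arrays, bars are the mean and SD of 4 arrays, and dashed lines are the mean negative-control median of the group. Olfr794, Olfr826, Olfr809, Olfr825 and Olfr827 lie around the dashed line in GFP+ cells, while Olfr788 is above 14 log2 there.

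The remaining distal families were smaller. Family MOR113 had 3 of 5 members lower with each treatment and none higher, among them Olfr816 at -3.27 ± 0.76 log2 with octanoic acid (at least 9.37-fold lower, adjusted p = 0.000104) and -3.32 ± 1.26 log2 with clean air (at least 9.63-fold lower, adjusted p = 0.000104). Olfr822 of that family had -2.16 ± 1.20 log2 with octanoic acid and -2.41 ± 0.77 log2 with clean air, both past the threshold. Olfr815, also called lower, is less firm, since its call with octanoic acid ended without octanoic acid pool 1, 2 or 4 and under quantile or receptor scaling, and its call with clean air ended without clean air pool 4. Without octanoic acid pools 1, 2 and 4 it was at -1.13, -1.15 and -1.21 log2, and without clean air pool 4 at -1.34 log2, beside -1.34 log2 with all octanoic acid pools and -1.62 log2 with all clean air pools.

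Family MOR108 had 2 of 4 members lower with octanoic acid and 3 of 4 with clean air. Olfr809 had differences of -4.68, -3.12, -6.08 and -4.96 log2 in the octanoic acid pools and -4.78, -2.68, -3.45 and -4.61 log2 in the clean air pools. It was at least 19-fold lower with octanoic acid (adjusted p = 9.2e-06) and at least 13.3-fold lower with clean air (adjusted p = 4.87e-05), with GFP+ cells at the background. Olfr813 spread widely over pools, at -3.23 ± 1.96 log2 with octanoic acid and -2.09 ± 0.94 log2 with clean air. Its octanoic acid GFP+ cells lay less than 1 SD above the background, and it was at least 8.04-fold lower there. Its call with clean air ended without clean air pool 1, 3 or 4, at -2.16, -1.91 and -1.78 log2, and when the sorted arrays were not paired. Olfr792 was at -1.23 ± 0.69 log2 with octanoic acid (adjusted p = 0.0645) and -1.85 ± 1.36 log2 with clean air (adjusted p = 0.00913), a call that ended without clean air pool 4, at -1.67 log2. With GFP+ cells of both treatments less than 1 SD above the background, Olfr792 was at least 2.03-fold lower in octanoic acid pools and at least 2.18-fold lower in clean air pools. Olfr798, whose window shares 87.5% with that of Olfr792, was at -0.06 ± 0.87 log2 with octanoic acid and -0.41 ± 0.45 log2 with clean air and did not pass.

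Family MOR110 went both ways. Its neighbors Olfr811 and Olfr812 were called in opposite directions, Olfr811 at 1.35 ± 0.45 log2 with octanoic acid (adjusted p = 0.00211) and 1.70 ± 0.67 log2 with clean air (adjusted p = 0.000405). Olfr812 was at -1.49 ± 0.47 log2 with octanoic acid (adjusted p = 0.00122) and -2.28 ± 0.68 log2 with clean air (at least 4.3-fold lower, with GFP+ cells at the background, adjusted p = 4.8e-05). Olfr801 of the same family was 2.64-fold higher with octanoic acid and 2.73-fold higher with clean air.

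At the start of the distal block lie Olfr9 and Olfr763 of family MOR269, whose windows share 84.3%, with 3 mismatches and 48 gap positions. Their probes too may take up RNA of both genes. Olfr763 had 1.72, 1.23, 2.58 and 1.04 log2 in the octanoic acid pools and 1.40, 0.69, 1.42 and 1.57 log2 in the clean air pools, above 0 in all 8. Olfr9 was at 1.71 ± 0.84 log2 with octanoic acid (adjusted p = 0.000658). With clean air it was at 0.97 ± 0.31 log2 (adjusted p = 0.0275), and that call ended when any 1 of the 4 clean air pools was left out, with 0.82 to 1.05 log2 remaining, or when arrays were centred on their receptor median. Olfr767 (MOR115) passed with both treatments, at 0.89 ± 0.30 log2 with octanoic acid and 1.22 ± 0.30 log2 with clean air. Olfr765, which shares 91.8% of its window, was at 0.26 ± 0.35 and 0.49 ± 0.54 log2 and did not pass. Probes of Olfr765 and Olfr767 may likewise take up RNA of both genes.

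Close neighbors with similar start regions thus had unlike differences in places, although probes of such pairs may take up RNA of both genes. Olfr247 was at -1.26, -1.40, -0.93 and -1.01 log2 in the octanoic acid pools (adjusted p = 0.00685) and -2.43, -0.87, -0.78 and -0.89 log2 in the clean air pools (adjusted p = 0.00441), below 0 in all 8. Olfr819, printed above beside it, was at 0.03 ± 0.21 log2 with octanoic acid and 0.16 ± 0.59 log2 with clean air, and its sign changed when octanoic acid pool 3 or clean air pool 3 was left out. Olfr814 was at 0.50 ± 0.93 log2 and Olfr815 at -1.34 ± 1.07 log2 with octanoic acid, with 83.3% of their windows in common. Of the 63 neighboring pairs within the blocks, 3 were both called higher, 9 both lower and 7 in opposite directions with octanoic acid. With clean air these numbers were 2, 11 and 6. The numbers that unrelated neighbors would give, at the shares called higher and lower, were not worked out. The pair counts therefore describe the calls and not an effect of map order. Differences between the genes of a pair were not tested.

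The 52 start windows were searched on both strands for short motifs. The motifs are those of factors known to act on receptor genes, the Ebf proteins and homeodomain proteins such as Lhx2. Of these windows 48 lie around the start codon. Promoters further upstream were not searched, so the counts do not speak for them. How many windows of other genes lie around a start codon was not counted. The Ebf palindrome (TCCC, any 2 bases, GGGA) was in 0 of 52 windows, in 0.561% of the windows of other odorant receptors and in 0.904% of all 32851 windows. The homeodomain core TAATTA was in 10 windows (19.2%) and TAATGA in 16 (30.8%). A window may hold both, and overlapping matches count for each. The shares were 18.6% and 28.7% for other receptors, and 5.29% and 9.78% for all windows. At least 1 of them was in 25 member windows (48.1%), against 40.5% of other receptor windows and 13.9% of all. With octanoic acid 4 of these 25 receptors were higher and 9 lower, and of the 27 without a core 5 were higher and 10 lower. With clean air 3 were higher and 10 lower with a core, and 6 were higher and 9 lower without. Olfr788 (chr10:129472444-129472743, plus strand), the MOR111 receptor that was higher in GFP+ cells, is shown as an example, with its TAATTA core in capitals.
Olfr788: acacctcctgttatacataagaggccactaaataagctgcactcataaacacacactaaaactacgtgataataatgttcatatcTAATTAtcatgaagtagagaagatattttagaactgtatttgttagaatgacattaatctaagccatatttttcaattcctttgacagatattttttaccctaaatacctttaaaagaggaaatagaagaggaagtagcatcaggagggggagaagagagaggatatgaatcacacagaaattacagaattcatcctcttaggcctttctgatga

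The comparison for which the assay was built asks whether octanoic acid moved a receptor towards GFP+ cells, as the difference between treatments of the within-pool difference. No chromosome 10 receptor passed, and none of the 19505 genes did (0.0%). Without adjustment p was under 0.05 in limma for 3 of the 65 receptors (4.62%), and for 4.47% of all genes. The smallest adjusted p was 0.940. The pools of the 2 treatments overlapped for all 65 receptors, while 2.54% of all genes had pools that did not overlap. The median odor effect was -0.09 log2 over the 65 receptors, -0.13 log2 over the other receptors and -0.03 log2 over all genes.

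The odor effect was small beside the differences between sorted cells, and its error was of the same size. In absolute value its median was 0.31 log2 and its largest value 1.15 log2, and 62 of 65 receptors lay within 1 log2. The standard error had a median of 0.41 log2 and ran from 0.20 to 0.82 log2. The upper bound of the 95% interval, without adjustment for the number of genes, was under 1 log2 for 36 of 65 receptors and under 2 log2 for all 65, with the highest bound at 1.92 log2 (Olfr827). A shift towards GFP+ cells within these bounds cannot be told from none with 4 pools per treatment. Some receptors, such as Olfr794 and Olfr826, lay at the background in GFP+ cells of both treatments. For these the bounds hold for the signal alone, since a change of transcript under the background cannot be seen.

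The receptor with the smallest p of its own was Olfr790, of family MOR112. Its differences were -0.49, 0.99, -0.86 and -1.22 log2 in octanoic acid pools 1 to 4 and -0.14, 0.73, 1.02 and 1.20 log2 in clean air pools 1 to 4. Octanoic acid pools 1, 3 and 4 lay below every clean air pool, and octanoic acid pool 2 lay among them. The odor effect was -1.10 (SE 0.45) log2, with an unadjusted 95% interval of -2.10 to -0.10 log2 and an adjusted p of 0.940 in limma. For Olfr812 the effect was 0.79 (SE 0.35) log2 (95% interval 0.01 to 1.56), as the receptor was less low in GFP+ cells with octanoic acid. Olfr1353 had 0.48, 1.89, 1.06 and 1.27 log2 in the octanoic acid pools and 0.63, 0.78, -0.65 and 0.64 log2 in the clean air pools, where pool 3 alone was below 0. Its effect was 0.83 (SE 0.37) log2 (95% interval 0.01 to 1.64). The next were Olfr823 at 0.70 (SE 0.34) log2 and Olfr9 at 0.74 (SE 0.37) log2, with intervals of -0.03 to 1.44 and -0.08 to 1.56 log2. All 5 had an adjusted p of 0.940 in limma.

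**Figure D4:**
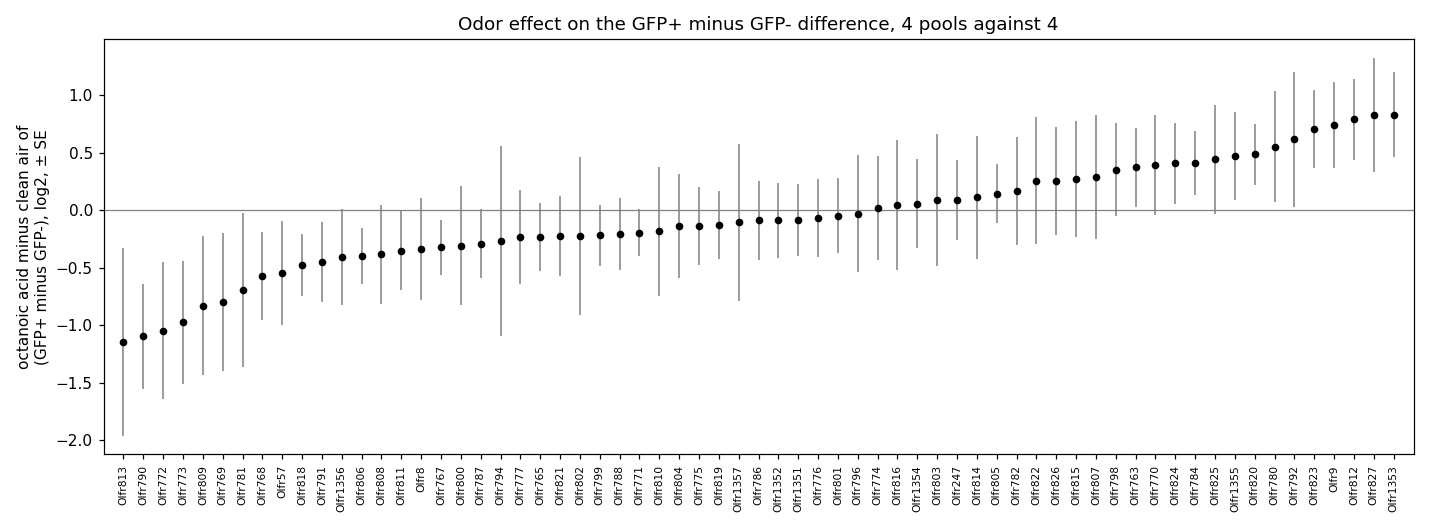
Odor effect on each of the 65 receptors, the GFP+ minus GFP- difference with octanoic acid minus that with clean air (log2 signal), sorted by size. Points are estimates from 4 pools against 4 and lines are 1 standard error to each side. Most lines cross 0, and the estimates run from -1.15 (Olfr813) to 0.83 (Olfr1353).

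Within GFP+ cells alone no gene differed between octanoic acid and clean air after adjustment (0.0% of all genes). Unadjusted limma p was under 0.05 for 4 of 65 receptors (6.15%) and 3.67% of all genes, and the smallest adjusted p was 0.955. Olfr9 had 8.51, 8.52, 9.10 and 8.76 log2 in GFP+ cells with octanoic acid and 8.40, 7.77, 7.76 and 8.19 log2 with clean air, where all octanoic acid arrays were above all clean air arrays. The difference was 0.70 (SE 0.21) log2 (limma adjusted p = 0.955). Olfr1353 had 7.98, 8.40, 8.13 and 7.96 log2 with octanoic acid and 7.20, 7.98, 6.73 and 7.26 log2 with clean air, a difference of 0.83 (SE 0.25) log2 (limma adjusted p = 0.955), and its highest clean air array lay within the octanoic acid range. Olfr824 and Olfr823 had 0.48 (SE 0.20) and 0.48 (SE 0.21) log2, and Olfr1355 had 0.53 (SE 0.26) log2.

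Within GFP- cells no gene passed either (0.0%), and the unadjusted limma p was under 0.05 for 1 of the 65 receptors (1.54%), beside 3.8% of all genes. That receptor was Olfr813, at 0.51 (SE 0.23) log2 (limma adjusted p = 0.985). Olfr57 had 0.68 (SE 0.38) log2, and Olfr1356 had 0.44 (SE 0.30) log2, neither with an unadjusted p under 0.05.

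Calls in the 2 treatments were largely of the same receptors, although this was not put to a test. They share 1 estimate of the spread per gene, so they are not independent. 10 receptors were higher and 21 lower with both treatments, and none was called in opposite directions. 6 were called with octanoic acid only (3 higher and 3 lower) and 4 with clean air only (1 higher and 3 lower), and the odor effect passed for none of these 10. The mean differences had the same sign in 61 of 65 receptors. Across the 65 receptors the mean differences of the 2 treatments correlated at Pearson 0.973 and Spearman 0.967, a description over genes on the same arrays, which are not independent replicates. Pools differed in their median over the 65 receptors, which was -0.16, -0.06, -0.86 and -0.59 log2 in octanoic acid pools 1 to 4 and -0.37, -0.13, -0.65 and -0.21 log2 in clean air pools 1 to 4. All 8 medians were below 0.

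**Figure D5:**
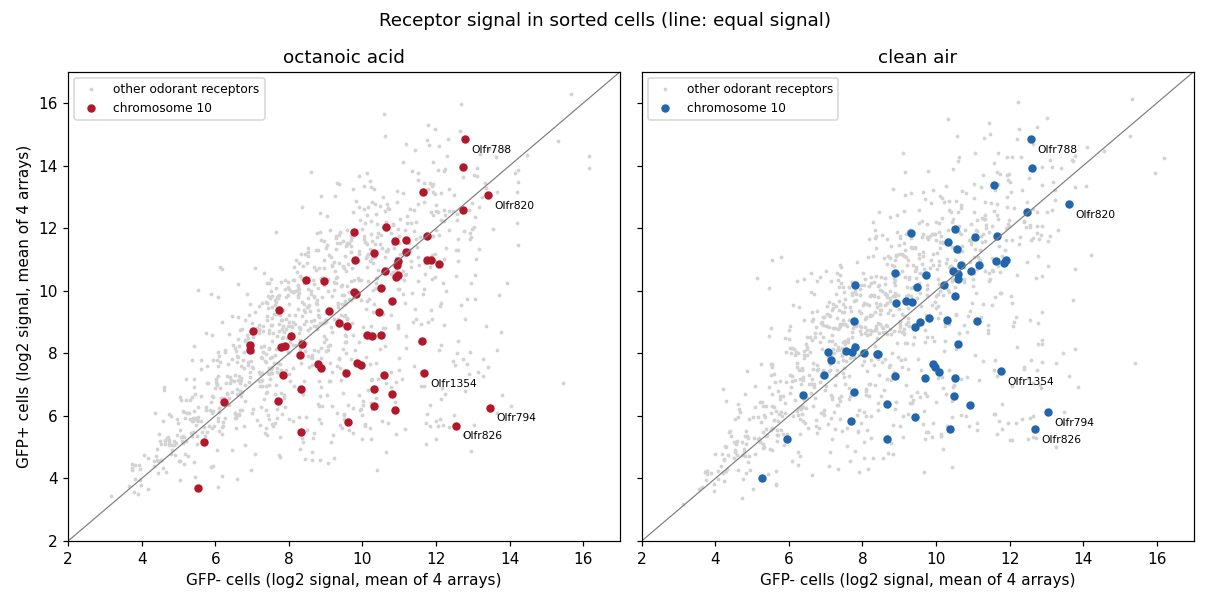
Mean log2 signal of the receptors in GFP+ cells (vertical) against GFP- cells (horizontal), 4 arrays each, with octanoic acid left and clean air right. Colored points are the 65 chromosome 10 receptors, gray points the 1026 other odorant receptors, and the line marks equal signal. Olfr794, Olfr826 and Olfr1354 lie far below the line with both treatments, and Olfr788 lies above it.

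Most receptors of the chromosome gave a signal above the negative controls. In the octanoic acid groups 57 of 65 had a mean above the background in GFP+ cells and 63 in GFP- cells, and the same numbers were found with clean air. The 95th percentile of the controls is far higher, at 10.4 log2 over all arrays. Taken for each group, it was 10.60 log2 in GFP+ cells and 9.93 log2 in GFP- cells with octanoic acid. With clean air it was 10.43 log2 in both. The value of the group was exceeded by 19 receptors in GFP+ cells and 35 in GFP- cells with octanoic acid. With clean air it was exceeded by 21 in GFP+ cells and 27 in GFP- cells. These counts thus rest on cut-offs that differ between groups. The median signal over the 65 receptors was 8.72 log2 in GFP+ cells and 10.26 log2 in GFP- cells with octanoic acid, and 9.02 log2 in GFP+ cells and 9.96 log2 in GFP- cells with clean air. Olfr788, Olfr776 and Olfr820 had the highest mean signals and Olfr768, Olfr782 and Olfr1351 the lowest, although the brightness of different probe sets does not rank the amounts of their transcripts. Olfr820 was at -0.36 ± 0.29 log2 with octanoic acid and did not pass, and at -0.85 ± 0.45 log2 with clean air (adjusted p = 0.00886), a call that ended without clean air pool 3, at -0.63 log2. Over the other receptors the median was 8.79 and 8.78 log2 in GFP+ and GFP- cells with octanoic acid, and 8.87 and 8.67 log2 with clean air.

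Genes of receptor signaling and receptor choice moved little beside these receptors. Of 24 such genes 3 were higher in GFP+ cells with octanoic acid, 4 with clean air and none lower, with medians of 0.19 and 0.23 log2. Ano2, the chloride channel of the cilia, was at 0.51 ± 0.07 log2 with octanoic acid (adjusted p = 0.0214) and 0.50 ± 0.13 log2 with clean air (adjusted p = 0.0237). The phosphodiesterase Pde1c was at 0.82 ± 0.11 log2 with octanoic acid and 0.78 ± 0.15 log2 with clean air, both past the threshold. Gnal was at 0.14 ± 0.12 and 0.24 ± 0.14 log2, and the homeodomain factor Lhx2 was at -0.30 ± 0.28 and 0.08 ± 0.38 log2, with octanoic acid and with clean air, without passing (SD, n = 4 pools). The odor effect passed for none of the 24.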

How the data were processed

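RNA of 16 sorted samples (50 to 100 ng each) was hybridized as biotin-labeled cRNA to Clariom S arrays. Per the labels, the authors processed the arrays with Affymetrix Expression Console and deposited log2 signals, 1 per probe set and array; its version, the summary method and the genome build are not given in the sources used here. The values run from 2.13 to 19.54, no 2 arrays are identical, and arrays of a group correlate at 0.975 to 0.993. Precision is set by the 4 pools per treatment, since arrays carry no read depth.

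Of 28846 probe sets, 19572 carry a single gene symbol. The brightest was kept per gene, leaving 19505 genes. Symbols, MOR names and map order come from the reference gene table (GRCm38.p6). Its start positions set the order, the blocks, the neighbors and the genes between the blocks. The build behind the probe sets of the array is not named. Olfr1354 lists several MOR names and was given the family of most of them.

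limma 3.58.1 in R 4.3.3 (lmFit, eBayes, two-sided, Benjamini-Hochberg over all genes, 0.05) tested the within-pool differences of 8 pools, as the mean per treatment and as octanoic acid minus clean air, and the GFP+ and GFP- arrays between treatments. GFP+ and GFP- samples of a pool share their 3 mice. The 2 means come from 1 fit with 1 estimate of the spread per gene. Leaving out a pool of 1 treatment can therefore end a call in the other. Of these fits only that of the odor effect was run on simulated data, with independent normal noise. It found 28.6% of changes of 1 log2 and 82.6% of changes of 2 log2. The changed genes were drawn from all genes, each with its own spread. The share found was not worked out for the receptors alone, so these values do not describe them. A fold is given as a bound when the dimmer group's mean was below the background plus 1 SD of that group; arrays under the background were then raised to it. No fold is given when both groups lay there. A fold without a bound can still rest on signals under the 95th percentile of the controls, 10.4 log2 over all arrays. Windows were aligned with Biopython 1.88.

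Octanoic acid and clean air pools carry the same numbers in the labels. Deviations of same-numbered pools correlated at 0.179, 0.110, 0.237 and 0.100 over the within-pool values. For GFP+ arrays r was 0.371, 0.100, 0.219 and 0.138, and for GFP- arrays 0.408, 0.100, -0.0986 and 0.153. All 4 pass 0.1, some barely, except for GFP- arrays. Pools of unlike number reached 0.149 for the within-pool values, 0.228 for GFP+ arrays and 0.192 for GFP- arrays, above some same-numbered pairs. These values therefore do not show that equal numbers mark paired pools.

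The members, lists and tests were chosen with earlier results of these data known. Named are the 10 largest rises and falls past the threshold per enrichment, the 5 smallest p per odor comparison, the 3 members with the highest and lowest signal, close pairs by start window (the rule set protein identity, for which no sequences were used here), and members set apart by a single pool; others were added after their values were seen, among them Olfr770, Olfr772, Olfr775, Olfr777, Olfr814, Olfr822, Olfr1352 and Olfr1357. Alternatives tried were 3 other scalings, a floor and a filter at the background, another variance prior, every probe set, the replicate block and leaving out each pool.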

Additional observations from a re-analysis of the deposited data

Results flagged for a closer look

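With 4 samples in a group, a sample was set apart when its gap to the nearest other, as a share of the range, exceeded Dixon's critical value. Among 130 groups of within-pool differences 10 had such a pool, and among 76 groups of signals 1 had such an array. Chance sets apart about 1 group in 20.

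In the clean air pools 7 receptors had a pool far from the others. Olfr1355 was at -2.05 log2 in pool 4, with the others at -0.74 to -0.54, and Olfr1351 at 1.20 log2 in pool 4, with the others at -0.14 to 0.06. Olfr806 was at 0.36 log2 in pool 4, with the others at -0.22 to -0.13. In pool 3 Olfr1353 was at -0.65 log2 (others 0.63 to 0.78), Olfr767 at 1.66 log2 (others 1.06 to 1.08) and Olfr780 at -4.86 log2 (others -2.96 to -2.88). In pool 1 Olfr247 was at -2.43 log2 (others -0.89 to -0.78).

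In the octanoic acid pools 3 receptors did. Pool 2 was at 1.25 log2 for Olfr803 (others -0.69 to -0.43). Pool 3 was at -1.61 log2 for Olfr810 (others 0.48 to 0.58) and at 0.26 log2 for Olfr815 (others -1.98 to -1.73). The signal of Olfr1356 on the octanoic acid GFP+ array of pool 3 was 12.73 log2, with the other 3 at 11.55 to 11.71. Of the 10 differences 3 were in clean air pool 4, 3 in clean air pool 3, 2 in octanoic acid pool 3 and 1 each in clean air pool 1 and octanoic acid pool 2.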

How the results depend on the processing

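Among the counts of receptors called, 1 moved by over 1.5 times under an alternative, since 19 (29.2%) were higher with clean air after centring on array medians, when 31.2% of all genes were. The median over the receptors was then -0.12 log2 with octanoic acid and -0.08 log2 with clean air, and it was -0.21 log2 with clean air when values were raised to the background. Leaving out 1 pool gave 13 higher and 21 to 28 lower with octanoic acid, and 9 to 12 higher and 18 to 25 lower with clean air. Under every setting run, 13 of 13 receptors called higher and 18 of 24 called lower with octanoic acid kept their calls, as did 9 of 11 and 17 of 24 with clean air. The odor comparisons had 0 calls in every setting run. The replicate block, which pairs odor and vehicle pools, left 0 calls, with smallest adjusted p over the receptors of 0.781 for the odor effect, 0.826 in GFP+ cells and 0.915 in GFP- cells, and an unadjusted p under 0.05 for 12 (18.5%), 8 (12.3%) and 2 (3.08%) receptors, beside 6.2%, 5.42% and 5.29% of all genes. With no replicate block, that is with GFP+ and GFP- arrays unpaired, 13 were higher and 24 lower with octanoic acid and 10 higher and 23 lower with clean air.

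Signs turned for receptors near 0 or at the background. With octanoic acid, raising values to the background gave 0.34 log2 for Olfr768 and 0.28 for Olfr782, a setting that ties many values. Centring on array medians gave 0.15 for Olfr771, 0.25 for Olfr798, 0.18 for Olfr803 and 0.29 for Olfr810. Quantile normalization gave 0.17 for Olfr798 and 0.0875 for Olfr810, and centring on receptors 0.0148 and 0.0623. Over the settings without 1 pool Olfr782 ran from -0.87 to 0.0234, Olfr798 from -0.38 to 0.21, Olfr803 from -0.58 to 0.0632, Olfr810 from -0.21 to 0.52 and Olfr819 from -0.0648 to 0.0960. With clean air, raising to the background gave 0.12 for Olfr768, centring on array medians 0.0580 for Olfr803 and 0.22 for Olfr806, and quantile normalization -0.0142 for Olfr771. Centring on receptors gave -0.13 for Olfr771, -0.00083 for Olfr810 and -0.0126 for Olfr819. Without 1 pool Olfr1351 ran from -0.0270 to 0.42, Olfr771 from -0.0155 to 0.13, Olfr803 from -0.69 to 0.17, Olfr806 from -0.19 to 0.0065, Olfr810 from -0.27 to 0.49 and Olfr819 from -0.0761 to 0.40. Leaving out octanoic acid pool 3 and clean air pool 4 together was chosen after seeing the data. It gave 0.21 for Olfr798, 0.0415 for Olfr803, 0.52 for Olfr810 and -0.0648 for Olfr819 with octanoic acid and -0.0270 for Olfr1351 with clean air. The cause of these turns was not tested. Signals near the control median limit the folds of the dimmest receptors.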
